A study of Homo sapiens with 40 samples.

Results

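Clone 35, labelled a JAG1 knockout, and the wild-type clones 38 and 75 come from H1299, a cell line of human non-small cell lung cancer. Each is given as CRISPR-Cas9 edited, and the series title places the edits in leader cells. Leader cells are the cells found at the front of a collectively invading group. The comparison took in 12 of the 40 RNA-seq libraries of the series, 4 cultures of clone 35 and 8 of the wild-type clones, chosen by the clone named in their titles. Clone 35 has the genotype JAG1 KO, and clones 38 and 75 the genotype MYO10 JAG1 WT although they too were edited. A gene counted as changed only where clone 35 differed from clone 38 and from clone 75 in the same direction. A second JAG1 knockout clone (72), the MYO10 knockout clones 98 and 99, clone 84 (MYO10 KO in its titles, MYO10 KD as its genotype), and the unedited leaders, parental cells and followers, each with 4 cultures, were used to show where clone 35 stood among them.

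Each of the 3 is a single clone, so the effect of the JAG1 edit and the differences that any single cell brings to its clone cannot be told apart here. The titles call the cultures biological replicates, and the p-values measure only the spread between cultures of a clone. In RNA from whole cultures, fewer cells of a kind and less RNA per cell cannot be told apart either. Where the guides cut is not given in the sources used here, protein was not analysed, and no growth conditions or treatment beyond the editing are named. The 12 libraries held 40996129 to 43468891 counts. Spearman correlations between cultures of a clone were 0.992 to 0.994, those between clones 38 and 75 were 0.983 to 0.986, and those between clone 35 and the wild-type clones were 0.957 to 0.962. LDHA had at most 3 counts and ZYX at most 8 in any of the 12 libraries, genes that most cultured cells express strongly, so a level near 0 cannot be read as absence of the transcript.

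JAG1 encodes Jagged-1, a membrane ligand that activates Notch receptors on neighbouring cells. A Notch receptor bound by ligand is cut first by ADAM10 and then by the γ-secretase complex, which frees the intracellular domain to enter the nucleus. There the domain joins the DNA-binding protein RBPJ and MAML coactivators, and genes such as HES1, HEY1 and NRARP are switched on. MYO10 encodes myosin-X, a motor that carries cargo to the tips of filopodia.

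JAG1 (chr20:10637684-10673999, GRCh38) was close to its wild-type level in clone 35. The TMM-scaled CPM (counts divided by the scaled library total) of JAG1 were 31.4, 33.8, 30.4 and 33.9 in the 4 cultures of clone 35. They were 39.6, 41.1, 58.5 and 37.6 in clone 38 and 40.7, 39.1, 42.3 and 39.99 in clone 75. Every culture of clone 35 lay below every wild-type culture, and the largest value came from 1 culture of clone 38. The difference was log2 -0.39 ± 0.15 (fold change ± SE; edgeR adjusted p = 0.139), which did not pass the test at an adjusted p of 0.05. A gene was called only if its log2 fold change also reached 1 or -1, which JAG1 did not do under any alternative. Its adjusted p ran from 8.47e-06 with no low-count filter to 0.334 with the clone as the unit.

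Many of its neighbours on chromosome 20 were lower in clone 35 too, but unevenly along the chromosome. Of the 50 tested genes nearest to JAG1, 25 on each side, 41 had a log2 fold change below 0, and their median was -0.40. JAG1 stood 0.01 from that median on the log2 scale, but the median pools unlike stretches. Over the 50 consecutive tested genes at chr20:3046052-9839076 the median was -0.64. Over the next 50, at chr20:10023812-22585490, which include JAG1, it was -0.16. In knockout clone 72 JAG1 was far lower, at 6.49 ± 0.296 CPM (mean ± SD, n = 4). Clone 35 exceeded clone 72 by log2 2.32 ± 0.20 (edgeR adjusted p = 5.11e-12). The MYO10 knockout clones had more, at 80.5 ± 13.7 CPM in clone 98 and 102 ± 22.1 in clone 99, and clone 35 was lower than both (mean log2 -1.48 ± 0.16, adjusted p = 2.51e-07). Clone 84, a MYO10 knockout by its titles and a MYO10 knockdown by its genotype label, had 151 ± 41.03 CPM, leaders 139 ± 18.7, parental cells 295 ± 53.6 and followers 17.5 ± 2.62. By the level of its transcript clone 35 was therefore nearer to the wild-type clones than to clone 72, and the transcript level did not check its label.

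MYO10 (chr5:16661907-16936288) was lower in clone 35 than in either wild-type clone, although it was not the labelled target. The cultures of clone 35 held 252, 248, 242 and 249.6 CPM. Clone 38 held 436, 422, 596 and 508 CPM and clone 75 held 438, 388, 536 and 401, with no overlap between clone 35 and the wild-type cultures. The log2 fold change was -0.91 ± 0.13 (edgeR adjusted p = 1.42e-05), just under the fold that a call needed. The 50 neighbours of MYO10 had a median of -0.28, and 7 of them were lower than MYO10. Clone 35 was also below clone 72 (518 ± 16.98 CPM; log2 -1.06 ± 0.15, adjusted p = 1.39e-07), while the MYO10 knockout clones were far lower still, at 63.4 ± 5.82 and 52.002 ± 5.08 CPM.

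GDF6, a secreted growth factor of the BMP family, rose in clone 35. Its cultures had 28.8, 27.3, 27.2 and 27.8 CPM, against 1.12, 1.13, 1.58 and 0.968 in clone 38 and 0.736, 0.505, 0.821 and 0.835 in clone 75. The log2 fold change was 4.89 ± 0.18 (edgeR adjusted p = 1.68e-18). The gene was also high in the other knockout clones, at 16.4 ± 0.491 CPM in clone 72, 13.4 ± 2.01 in clone 98 and 24.7 ± 6.59 in clone 99. Clone 35 exceeded clone 72 by log2 0.76 ± 0.17 (adjusted p = 0.000278), and its difference from clones 98 and 99 did not pass the test (log2 0.61 ± 0.15, adjusted p = 0.671). Leaders had 0.460 ± 0.316 CPM and clone 84 2.42 ± 0.625.

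**Figure D1:**
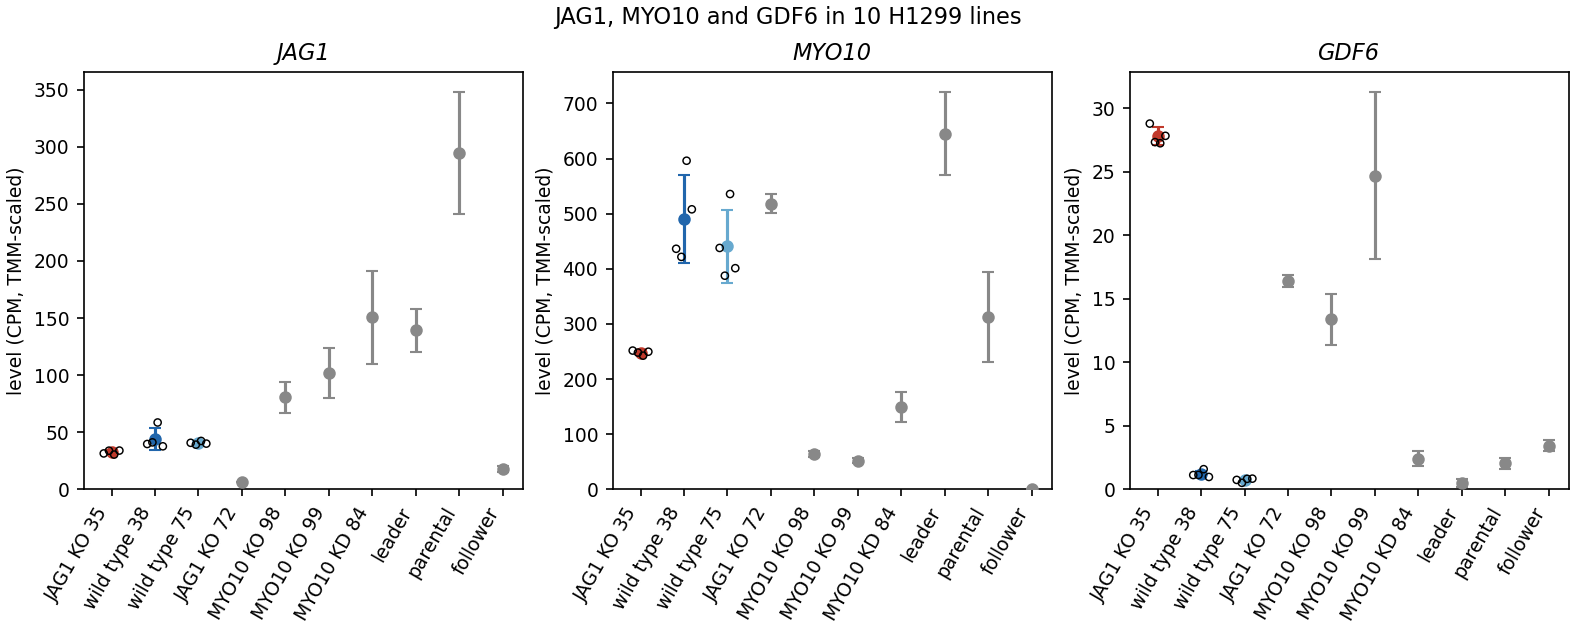
Levels of JAG1, MYO10 and GDF6 in CPM (vertical axes, linear, from 0) for the 10 lines; filled points are means of 4 cultures with SD bars, and open circles are the cultures of clones 35, 38 and 75. Clone 35 sits just below the wild-type clones for JAG1, between them and the MYO10 knockout clones for MYO10, and far above them for GDF6.

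Beyond these genes, clone 35 differed from both wild-type clones in 2610 of 19703 genes tested (13.2%). Of these, 1234 rose (6.26% of genes tested) and 1376 fell (6.98%). Against clone 38 alone 3380 genes were called (17.2%) and against clone 75 alone 3107 (15.8%). Clones 38 and 75, which carry the same label, differed from each other in 861 genes (4.37%). Clone 35 differed from knockout clone 72 in 4138 genes (21%), more than from either wild-type clone alone. It differed from both MYO10 knockout clones together in 1147 (5.82%). That count, like the 2610, needs agreement against both clones, so it cannot be set against the counts for a single pair of clones. In 1132 of the genes that rose, all 4 cultures of clone 35 lay above all 8 wild-type cultures, and in 1174 of those that fell they lay below. The calls were made on these same cultures, so the separation is no separate support for them. An absolute log2 fold change above 3 was reached by 321 genes that rose and 255 that fell.

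The count depends on what is taken as the unit. With counts summed over the cultures of each clone, so that the spread between clones of a label sets the error, 46 genes passed (29 higher, 17 lower) with 2 residual degrees of freedom, and 4093 had an unadjusted p under 0.05. The larger counts describe clone 35 against these 2 clones.

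**Figure D2:**
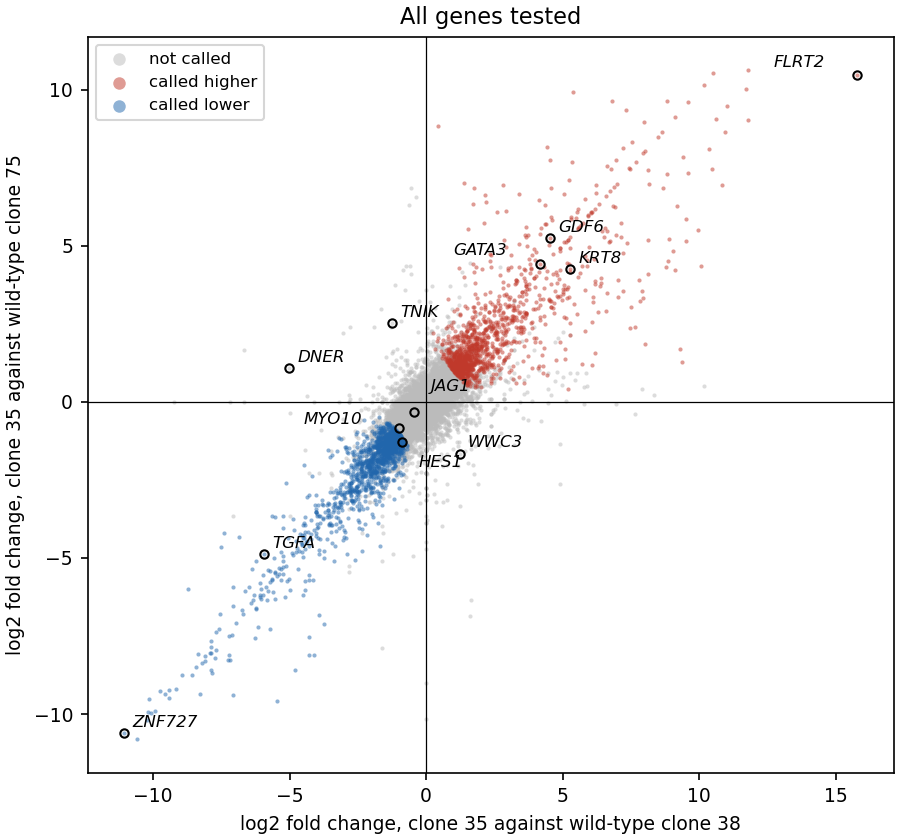
Log2 fold change of each gene tested in clone 35 against clone 38 (horizontal) and against clone 75 (vertical), coloured by call, with some genes of the text circled and named. Called genes lie in the upper right (1234) and lower left (1376), and DNER, TNIK and WWC3 differ in direction between the 2 wild-type clones.

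Notch target genes moved in both directions. Of 17 tested, 4 rose and 3 fell, and their median log2 fold change was -0.10, against -0.01 over all genes tested. Counts of list members here and below stand beside 6.26% of all genes tested that rose and 6.98% that fell. GATA3, NRARP, NOTCH3 and SOX9 rose. HES1, BMP2 and GUCY1A1 fell. Of the HES and HEY repressors tested HES1 alone was called. The promoters of HES1, NRARP and GATA3 are shown because these genes, all named as Notch-responsive, moved in opposite directions. Each runs from 250 bases before the RefSeq start to 50 after it in GRCh38.p14, on the strand of the gene, 5′ to 3′, and capitals mark TGGGAA, the core of the RBPJ recognition sequence, searched on both strands.
HES1 (chr3:194135898-194136197, + strand): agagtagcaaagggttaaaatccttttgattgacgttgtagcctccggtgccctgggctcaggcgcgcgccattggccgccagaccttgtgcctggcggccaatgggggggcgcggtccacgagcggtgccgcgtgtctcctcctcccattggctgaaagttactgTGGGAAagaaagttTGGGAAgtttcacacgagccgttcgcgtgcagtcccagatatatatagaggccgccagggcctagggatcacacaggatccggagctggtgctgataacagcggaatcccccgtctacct
NRARP (chr9:137302222-137302521, - strand): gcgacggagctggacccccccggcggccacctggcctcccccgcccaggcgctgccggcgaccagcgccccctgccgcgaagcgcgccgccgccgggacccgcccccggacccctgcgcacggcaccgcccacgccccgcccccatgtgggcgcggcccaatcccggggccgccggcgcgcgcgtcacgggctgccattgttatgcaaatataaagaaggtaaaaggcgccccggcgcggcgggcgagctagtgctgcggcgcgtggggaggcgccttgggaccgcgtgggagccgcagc
GATA3 (chr10:8045083-8045382, + strand): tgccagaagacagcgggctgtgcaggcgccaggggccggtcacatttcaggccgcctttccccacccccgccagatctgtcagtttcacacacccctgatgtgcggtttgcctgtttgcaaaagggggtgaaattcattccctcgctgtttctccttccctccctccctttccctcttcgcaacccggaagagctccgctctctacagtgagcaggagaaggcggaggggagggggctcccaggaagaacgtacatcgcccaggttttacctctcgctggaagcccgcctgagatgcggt

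The HES1 window held TGGGAA in 2 places, and the NRARP and GATA3 windows held none. Of 27305 promoters of this length 24.3% held the word at least once and 3.81% at least 2 times. Of the 19 listed Notch targets 12 had a promoter entry, and 5 of those held the word (HES1, HES4, HES5, HEY2 and HEYL), 4 of them at least 2 times. A match describes the letters of this window only.

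HES1 (chr3:194136148-194138732), the repressor most used as a readout of Notch, had 96.4, 105, 36.03 and 39.6 CPM in the cultures of clone 35. It had 117, 157, 137 and 105 CPM in clone 38 and 147, 197, 175 and 161 in clone 75. Cultures 1 and 2 of clone 35 were close to clone 38, of which the lowest culture lay between them, and cultures 3 and 4 had less than any wild-type culture. The fall was log2 -1.10 ± 0.27 (edgeR adjusted p = 0.0154). It was lost without culture 3 of clone 35 (log2 -0.87, adjusted p = 0.0837), without culture 4 (log2 -0.90, adjusted p = 0.0762) or without culture 2 of clone 38 (adjusted p = 0.0545), in the fit of the 12 libraries alone (adjusted p = 0.0674) and with the clone as the unit (adjusted p = 0.113). Against clone 38 alone the change was log2 -0.90, under the fold threshold. Clone 72 had less HES1 than clone 35, at 32.8 ± 8.55 CPM (log2 1.08 ± 0.31, edgeR adjusted p = 0.00317). Cultures 3 and 4 of clone 35 were near that level, and cultures 1 and 2 were well above it.

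NRARP (chr9:137299631-137302271), which encodes a feedback inhibitor of Notch that is itself switched on by Notch, rose in clone 35. Its cultures had 20.9, 21.2, 22.2 and 20.6 CPM, against 8.71, 7.94, 8.22 and 6.51 in clone 38 and 8.08, 7.15, 7.91 and 10.3 in clone 75, with no overlap. The log2 fold change was 1.39 ± 0.08 (edgeR adjusted p = 2.35e-15). Clone 72 had 7.28 ± 0.493 CPM and clone 35 exceeded it (log2 1.54 ± 0.10, adjusted p = 1.72e-17). The MYO10 knockout clones had 30.3 ± 2.31 and 19.6 ± 1.32 CPM.

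GATA3 (chr10:8045333-8075198), a transcription factor of T cells and of several epithelia, had the greatest rise of these targets. The cultures of clone 35 had 42.6, 48.02, 38.4 and 42.8 CPM, those of clone 38 2.64, 2.08, 2.67 and 2.06 and those of clone 75 1.70, 1.47, 2.28 and 2.53. The log2 fold change was 4.30 ± 0.13 (edgeR adjusted p = 4.2e-22). It was 6.72 ± 0.258 CPM in clone 72, and 28.2 ± 5.51 and 26.9 ± 6.25 in clones 98 and 99. SOX9, a factor of progenitor cells in many epithelia, had 158 to 167 CPM in clone 35 against 63.96 to 102 in the wild-type clones (log2 1.02 ± 0.09). Its rise sat at the fold threshold and fell under it with library totals alone, against clone 75 alone and without culture 4 of clone 38 (each log2 0.98 to 0.99).

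NOTCH3, a receptor that is also a Notch target, had 5.74, 5.92, 4.58 and 3.84 CPM in clone 35, 3.09, 2.89, 1.48 and 1.28 in clone 38 and 3.95, 2.36, 1.09 and 1.35 in clone 75 (log2 1.20 ± 0.26, edgeR adjusted p = 0.00225). In all 3 clones cultures 1 and 2 were higher than cultures 3 and 4, and the lowest culture of clone 35 was below the highest of clone 75. BMP2, a ligand of BMP receptors, had 0 to 0.0731 CPM in clone 35 against 0.363 to 0.698 in the wild-type clones. GUCY1A1, a subunit of soluble guanylate cyclase, had 0.396 to 0.512 CPM against 1.33 to 2.76 (log2 -2.04 ± 0.21). The other targets were not called. HES4 had a log2 fold change of 0.70 ± 0.18, HEY1 of -0.63 ± 0.21, HEY2 of -0.72 ± 0.13, HEYL of -0.21 ± 0.12, CCND1 of -0.11 ± 0.10 and MYC of -0.10 ± 0.15. For HEY1 the wild-type clones stood apart, with 2.55 to 4.21 CPM in clone 38 and 5.85 to 11.5 in clone 75 against 3.29 to 3.91 in clone 35.

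**Figure D3:**
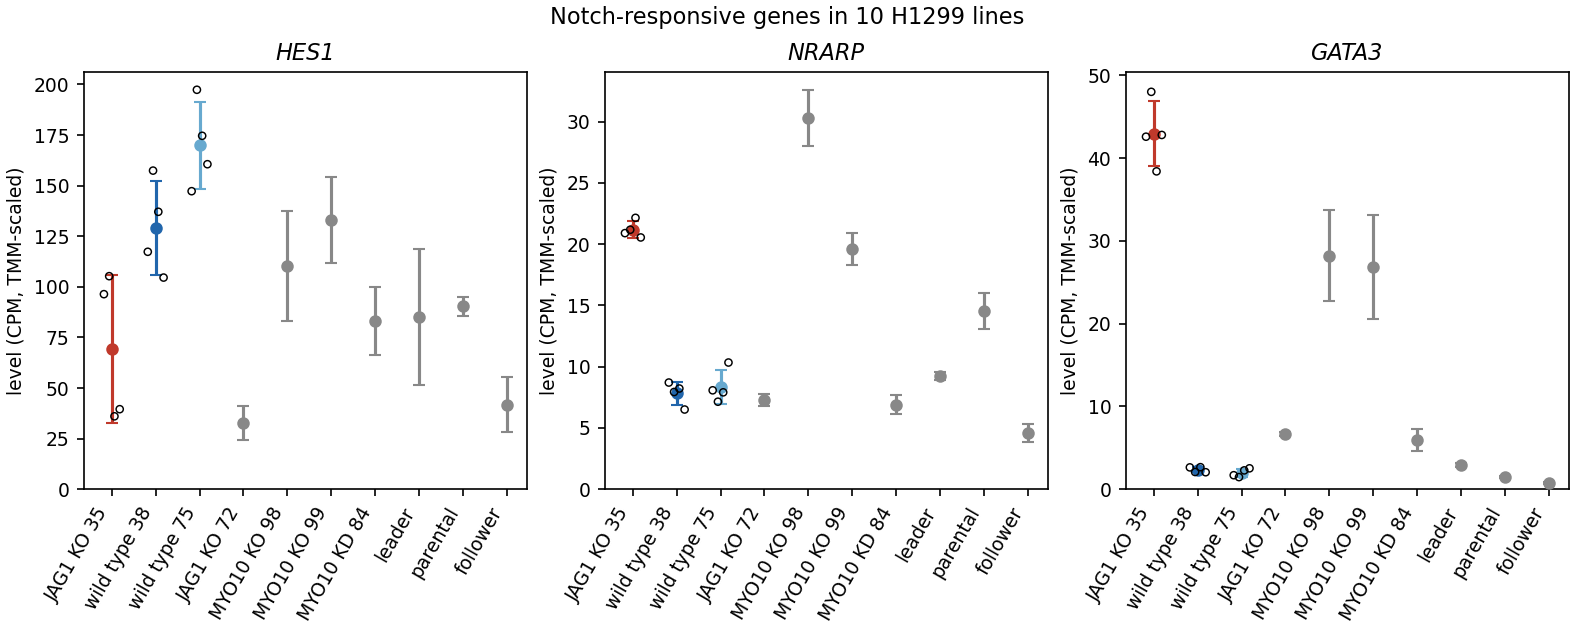
Levels of HES1, NRARP and GATA3 in CPM (vertical axes, linear, from 0) for the 10 lines; filled points are means of 4 cultures with SD bars, and open circles are the cultures of clones 35, 38 and 75. The HES1 cultures of clone 35 split into a higher and a lower pair, while NRARP and GATA3 in clone 35 lie above every wild-type culture.

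Of 8 Notch ligands tested, 1 rose and 0 fell, with a median log2 fold change of -0.66. MFAP5, which rose, is a microfibril protein that can bind Notch and is described with the largest rises. JAG2, the other Jagged ligand, had 33.5, 33.3, 33.7 and 32.5 CPM in clone 35, 55.05, 53.9, 57.6 and 45.2 in clone 38 and 44.8, 35.1, 34.9 and 25.6 in clone 75, and was not called (log2 -0.37 ± 0.10, edgeR adjusted p = 0.743). DLL3, a Delta-like ligand that inhibits Notch within its own cell, had 12.3 to 13.97 CPM against 6.49 to 7.93 (log2 0.83 ± 0.07), under the fold threshold. The wild-type clones disagreed on DNER, a neuronal ligand, which had 0.610 to 0.957 CPM in clone 35, 21.2 to 33.4 in clone 38 and 0.241 to 0.570 in clone 75.

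Few genes of the receptors and their processing were called. Of 34 tested, 2 rose and 2 fell, a share near that of all genes. The receptor NOTCH1 had 19.4 to 19.97 CPM over the cultures of clone 35 and 18.995 to 23.3 over the 8 wild-type cultures (log2 -0.09 ± 0.07, edgeR adjusted p = 0.54). The receptor NOTCH2 had 124 to 135 against 173 to 192 (log2 -0.49 ± 0.06). The proteases ADAM10 and ADAM17 had log2 fold changes of -0.39 ± 0.05 and -0.82 ± 0.05, and RBPJ of -0.14 ± 0.04, all under the fold threshold. DTX4, a ubiquitin ligase of the Deltex family, rose from 0.371–0.881 to 4.41–5.03 CPM (log2 3.18 ± 0.20). DTX3L, another Deltex ligase that is also induced by interferon, fell from 12.01–16.9 to 3.21–4.19 (log2 -1.92 ± 0.08). The coactivator MAML2 fell from 8.9995–17.1 to 3.07–4.39 CPM (log2 -1.78 ± 0.10, adjusted p = 1.96e-14), and MAML3 had 6.62 to 8.34 against 2.40 to 5.53 (log2 0.98 ± 0.11), just under the fold threshold.

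The 12 largest rises were of genes at under 2 CPM in every wild-type culture. PXDN, which encodes peroxidasin, the enzyme that crosslinks collagen IV, had 32.5, 30.2, 30.8 and 34.02 CPM in clone 35 and at most 0.0241 in any wild-type culture. Its 5148 counts in clone 35 against 4 in 8 wild-type libraries gave a scaled level 2694 times (95% interval 1052 to 9891) higher. FLRT2, an adhesion protein and axon repellent, had 144, 159, 175 and 189 CPM, against 0 in clone 38 and 0.0722 to 0.162 in clone 75, a level 2814 times (95% interval 1821 to 4607) higher. SPP1, osteopontin, a secreted matrix protein bound by integrins, had 57.8, 54.6, 48.3 and 44.3 CPM and was 1735 times (95% interval 943 to 3619) higher. These intervals, like all intervals of counts here, are exact and cover counting error only.

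The other 9 encode a secreted ligand, matrix, junction and channel proteins among others. MFAP5 had 16.9 to 20.96 CPM and BMP7, a BMP ligand, had 20.2 to 20.9, and neither passed 0.218 CPM in a wild-type culture. CRIP1, a small LIM protein, had 153 to 210.3 CPM against 0.719 to 1.79, a level 137 times (95% interval 125 to 151) higher. KAZN, a protein of cell junctions, had 10.3 to 10.9 CPM, the keratin KRT2 5.85 to 7.34, VAT1L 5.23 to 6.17, the receptor phosphatase PTPRM 6.47 to 7.07, DPP6, a partner of potassium channels, 4.88 to 5.90, and SHROOM3, a regulator of apical constriction, 5.50 to 7.58. For KAZN the scaled level was 1178 times (95% interval 402 to 5717) higher and for SHROOM3 96.4 times (95% interval 63.3 to 154).

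Not all of these rises set clone 35 apart from the other knockout clones. All 12 genes were higher than in clone 72 by the direct test, as were 12.2% of all genes, and clone 72 had at most 0.204 CPM of any of them. The 12 were picked for their rise in clone 35, which favours such calls. Against clones 98 and 99 together, where 1.88% of all genes were higher and 3.94% lower, 6 were higher in clone 35 (PXDN, FLRT2, KAZN, BMP7, PTPRM and DPP6), 2 were lower (SPP1 and SHROOM3) and 4 were not called (KRT2, VAT1L, MFAP5 and CRIP1). SPP1 reached 195 ± 49.6 and 156 ± 54.5 CPM in those clones, above clone 35 (log2 -1.77 ± 0.19, edgeR adjusted p = 2.93e-07). CRIP1 had 166 ± 40.8 and 193 ± 28.2 CPM there, a log2 difference of 0.05 ± 0.12 from clone 35. PXDN was 0.0740 ± 0.0211 CPM in clone 98 and 14.8 ± 2.94 in clone 99. Leaders had 1.43 CPM of VAT1L and less of the others, except for BMP7 at 37.4 ± 2.49.

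The 12 largest falls were of genes that clone 35 nearly lacked. ZNF727, a zinc finger protein, had 1 count in the 4 libraries of clone 35. It had 19.3, 21.9, 18.1 and 18.4 CPM in clone 38 and 14.4, 15.6, 13.4 and 13.5 in clone 75, a wild-type level 2707 times (95% interval 486 to 106955) higher. ZDHHC15, a palmitoyltransferase, SLFN11, a restriction factor that sensitises cells to DNA damage, and STAC, an adaptor of calcium channels, each also had 1 count in clone 35. Their wild-type levels were 7.36 to 10.6, 5.61 to 7.50 and 4.96 to 8.62 CPM.

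PRKAA2, a catalytic subunit of the energy sensor AMPK, had 0.270, 0.341, 0.248 and 0.305 CPM in clone 35. It had 31.3, 34.3, 30.5 and 31.01 in clone 38 and 31.1, 28.9, 29.2 and 30.5 in clone 75, even levels in both, and a wild-type level 106 times (95% interval 79.6 to 144) higher. SORL1, a sorting receptor of endosomes, had 0.171 to 0.330 CPM against 39.2 to 61.8. MAOA, the monoamine oxidase that breaks down serotonin and noradrenaline, had 0.0508 to 0.171 against 10.1 to 13.5. FUT9, a fucosyltransferase, had 0 to 0.0762 against 5.26 to 9.64, BICC1, an RNA-binding protein, 0 to 0.0743 against 4.83 to 10.99, LONRF3 0 to 0.0487 against 4.76 to 6.40, NEXMIF 0 to 0.0487 against 4.57 to 9.62 and FAM133A 0 to 0.124 against 4.91 to 28.4. For BICC1 and FAM133A the wild-type clones differed from each other as well, clone 75 being the higher.

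Clone 72 kept 10 of these 12 genes, all called lower in clone 35 than in clone 72, as were 8.78% of all genes. The 12 were picked for their fall in clone 35, which favours such calls. FAM133A and MAOA were near 0 in clone 72 too, at 0.0707 ± 0.0814 and 0.0785 ± 0.0816 CPM, with log2 differences of -0.89 ± 0.82 and 0.51 ± 0.52 that did not pass the test (edgeR adjusted p = 0.355 and 0.41). Against clones 98 and 99, where 3.94% of all genes were lower, ZNF727, ZDHHC15, STAC, FUT9, SORL1 and MAOA were lower in clone 35, and the other 6 were not called. STAC had 8.49 ± 0.571 and 9.88 ± 0.818 CPM in clones 98 and 99. SLFN11 had no count in either of those clones and 0.0240 ± 0.0480 CPM in leaders. PRKAA2 had 0.154 ± 0.0592 and 0.277 ± 0.0514 CPM in clones 98 and 99 and 31.3 ± 1.01 in leaders.

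**Figure D4:**
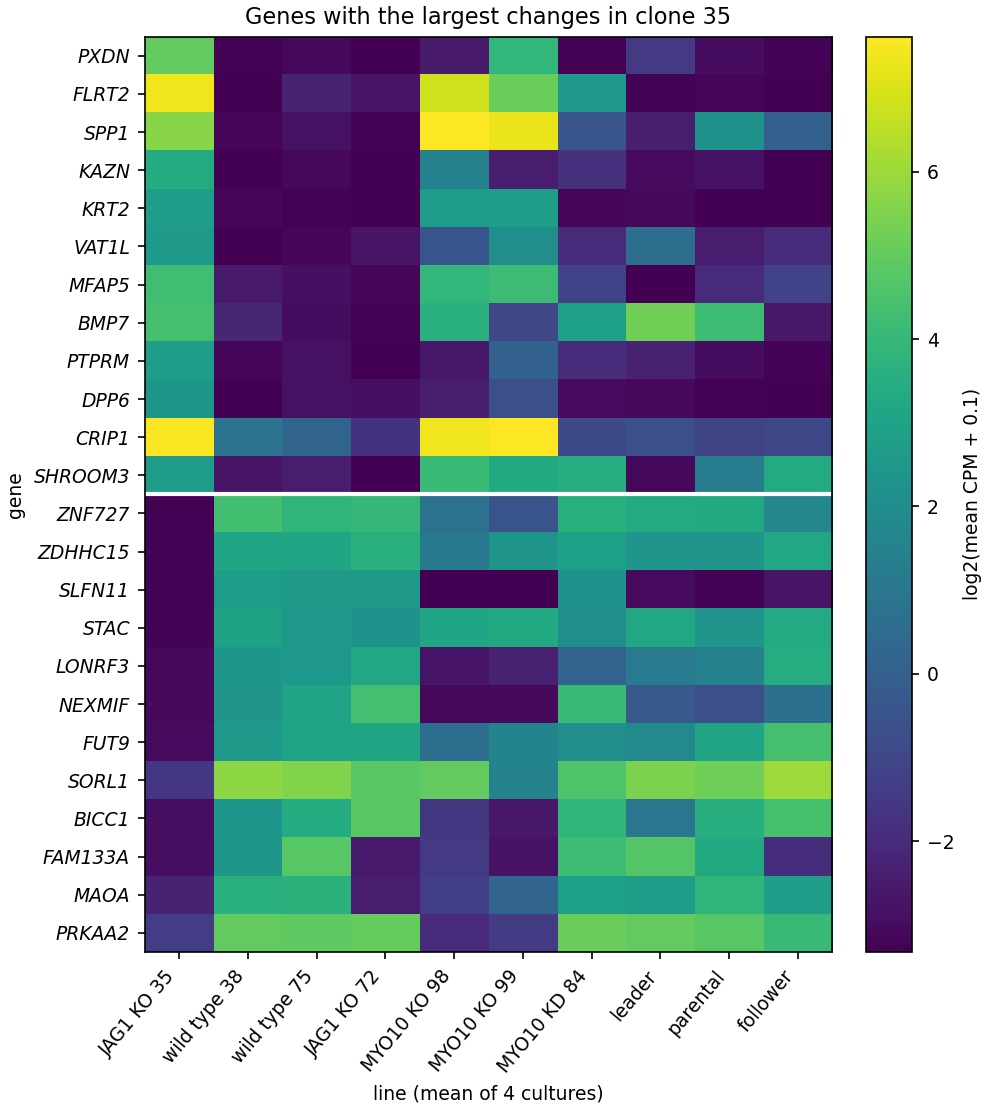
Mean level of the 12 largest rises (above the white line) and the 12 largest falls (below it) in the 10 lines, as log2 of the mean CPM of 4 cultures plus 0.1. The rises are bright in clone 35 and dark in clone 72, where none passed 0.204 CPM, while SPP1 is brighter still in clones 98 and 99; the falls are dark in clone 35.

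Many collagen genes were lower in clone 35. Of 23 chains tested, 10 fell and 1 rose, with a median log2 fold change of -1.03, and 8 of the falls stayed past log2 1 relative to their chromosomal neighbours. COL4A5, a chain of basement membrane collagen IV, fell from 3.46–9.24 to 0.638–0.966 CPM (log2 -2.84 ± 0.15, edgeR adjusted p = 6.04e-17). COL18A1, the source of endostatin, fell from 5.70–7.68 to 0.768–1.33 CPM (log2 -2.52 ± 0.15). COL12A1, a fibril-associated chain, fell from 3.26–21.02 to 1.02–1.81. COL11A1, a minor fibrillar chain, was the exception: it had 1.78 to 2.62 CPM in clone 35 and 2 counts in the 8 wild-type libraries. The collagen I chain COL1A1 did not pass 0.402 CPM in any of the 12 libraries.

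Other matrix genes moved both ways. Of 43 glycoproteins and crosslinkers, 8 rose and 5 fell (median log2 -0.13). TGM2, the transglutaminase that crosslinks matrix proteins, had 484, 476, 494 and 529 CPM in clone 35 against 44.1 to 69.01 in the wild-type clones (log2 3.14 ± 0.18, edgeR adjusted p = 7.57e-13). FBN2, fibrillin-2, had 15.3 to 17.4 against 1.16 to 2.97, and the laminin chain LAMA1 1.98 to 3.48 against 0 to 0.0464. NID2, nidogen-2, fell from 4.19–27.6 to 0.203–0.487 CPM (log2 -4.92 ± 0.28), and LAMB3, a chain of laminin-332, from 36.2–62.4 to 4.34–4.86 (log2 -3.27 ± 0.22). TGM2 was high in clones 98 and 99 too (420.3 ± 44.1 and 208 ± 101 CPM) and low in clone 72 (13.1 ± 0.752).

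Of 23 matrix proteases and inhibitors, 5 rose and 2 fell (median log2 0.42). MMP1, interstitial collagenase, had 7.48, 8.36, 3.89 and 3.99 CPM in clone 35 against 0.112 to 0.815 (log2 4.29 ± 0.56, edgeR adjusted p = 2.17e-05), with cultures 1 and 2 above cultures 3 and 4. MMP17, a membrane-anchored protease, rose from 0.464–1.31 to 3.49–3.68 CPM. TIMP2, an inhibitor of matrix metalloproteinases, fell from 107–154 to 32.6–39.8 CPM (log2 -1.82 ± 0.12), and PLAU, urokinase, from 49.6–116 to 22.6–25.96 (log2 -1.68 ± 0.22).

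Of 31 integrin and focal adhesion genes, 3 rose and 4 fell, against 6.26% and 6.98% of all genes tested. ITGB8, a subunit of the integrin that activates latent TGF-beta, had 6.05 to 7.86 CPM in clone 35 against 0.139 to 0.312 (log2 4.91 ± 0.18, edgeR adjusted p = 9.08e-21). ITGA2, a subunit of the collagen receptor, had 246, 261, 204 and 200.2 CPM, 26.6, 27.2, 44.4 and 27.2 in clone 38 and 83.3, 88.7, 122 and 62.6 in clone 75 (log2 2.11 ± 0.17). TNS3, a focal adhesion adaptor, fell from 38.5–49.6 to 16.6–17.99 CPM. Of 33 genes of filopodia and actin bundling, to which MYO10 belongs, 0 rose and 3 fell (median log2 -0.15). The share that fell was near the 6.98% of all genes tested. MYO6, the myosin that moves towards the minus end of actin, fell from 56.6–70.4 to 9.88–12.7 CPM (log2 -2.47 ± 0.08, adjusted p = 1.05e-24). PLS1, an actin-bundling plastin, fell from 42.4–56.9 to 13.2–14.4 (log2 -1.86 ± 0.07), and the formin FMNL1 from 5.29–8.35 to 2.21–3.10. PLS1 was lower in clone 35 than in clone 72 and than in clones 98 and 99 by the direct tests (adjusted p = 2.14e-22 and 3.37e-17).

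The keratins KRT8 and KRT18 rose in clone 35, while the keratin KRT7 and the desmosomal cadherins DSC2 and DSG2 fell. KRT8 had 547, 543, 563 and 660.2 CPM in clone 35, 17.02, 16.6, 13.9 and 12.7 in clone 38 and 33.2, 28.7, 31.4 and 28.2 in clone 75 (log2 4.76 ± 0.11, edgeR adjusted p = 1.07e-22). KRT18, its partner in the same filament, had 671, 667, 707 and 843 CPM against 113 to 206 (log2 2.31 ± 0.12). Reads of both can be shared with many processed pseudogenes, so the size of these changes is uncertain. DSC2 and DSG2 fell from 4.31–6.50 to 0.466–0.609 and from 26.8–34.9 to 5.58–6.67 CPM (log2 -3.37 ± 0.18 and -2.31 ± 0.10). KRT7 fell from 1.19–2.67 to 0.146–0.381 CPM. In all, 3 of 27 tested members of the epithelial list rose and 8 fell (median log2 -0.09). KRT8 was lower in clone 72 (3.79 ± 0.499 CPM) and high in clone 98 (599.8 ± 51.7) and clone 99 (305 ± 69.4).

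Of 23 mesenchymal genes, 0 rose and 3 fell (median log2 -0.11). PRRX1, a homeobox factor of mesenchyme, fell from 3.36–9.41 to 0.788–1.27 CPM (log2 -2.66 ± 0.20, edgeR adjusted p = 2.19e-10), and ZEB2, a repressor of epithelial genes, from 27.5–33.8 to 6.09–6.86 (log2 -2.18 ± 0.10). CDH2, N-cadherin, fell from 33.05–48.6 to 18.5–19.9 (log2 -1.06 ± 0.07) and passed the fold threshold narrowly; against clone 38 alone its change was log2 -0.93. CDH1, the epithelial cadherin, had at most 4 counts in any of the 12 libraries, and the intermediate filament vimentin (VIM) stayed abundant, at 2581 to 2815 CPM in clone 35 and 1558 to 1863 in the wild-type clones.

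Of 24 TGF-beta and activin genes, 4 rose and 3 fell (median log2 0.17). The receptor TGFBR2 had 126, 124, 111 and 102 CPM in clone 35, 8.50, 7.82, 11.2 and 10.7 in clone 38 and 14.8, 15.3, 16.7 and 15.9 in clone 75 (log2 3.24 ± 0.09, edgeR adjusted p = 1.17e-21). SMAD3, which carries the signal to the nucleus, fell from 206–286 to 45.7–63.7 CPM (log2 -2.08 ± 0.11, adjusted p = 3.17e-15). PMEPA1, a feedback inhibitor that TGF-beta induces, fell from 57.6–141 to 24.8–35.1 (log2 -1.40 ± 0.19). A receptor and a transducer of the same pathway thus moved in opposite directions. Of 32 BMP pathway genes, 5 rose and 2 fell. Besides GDF6 and BMP7, the BMP antagonist NOG rose, from 3.99–10.1 to 31.4–45.3 CPM (log2 2.52 ± 0.31, adjusted p = 5.35e-06). The ligand GDF7 fell from 0.479–0.980 to 0.124–0.203.

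In a list of kinase receptors, their ligands and proteins that bind either, 10 of 32 genes rose and 1 fell (median log2 0.36). Of those that rose, FGFR2 and FGFR3 are receptor tyrosine kinases and IGF2, FGF5, FGF18 and PDGFC are ligands, while IGFBP2, IGFBP3 and IGFBP6 bind IGF and NRP1 is a co-receptor. IGFBP3 was near the floor, with a mean of 0.185 CPM in clone 35 and 0.0177 in the wild-type clones. Its call was lost without culture 1 of clone 35, culture 1 of clone 75 or culture 4 of clone 75 (edgeR adjusted p = 0.0772, 0.0559 and 0.0536). IGF2, the fetal insulin-like growth factor, had 55.2, 48.97, 48.7 and 52.1 CPM in clone 35, 0.381, 0.392, 0.938 and 0.702 in clone 38 and 2.63, 2.48, 3.83 and 4.11 in clone 75 (log2 5.19 ± 0.19, edgeR adjusted p = 2.35e-15). Leaders had 55.3 ± 6.87 CPM, near the level of clone 35. IGFBP2 had 5.41 to 6.96 against 0.278 to 1.02 (log2 3.38 ± 0.20). FGFR2 had 1.33 to 2.33 CPM against 0 to 0.0484, and was near 0 in clones 72, 98 and 99. PDGFB fell from 6.50–14.8 to 1.67–2.19 CPM (log2 -2.27 ± 0.25).

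Among 13 ERBB ligands and receptors, the ligand NRG1 rose and the ligand TGFA fell. NRG1, neuregulin-1, had 25.1, 24.4, 34.1 and 37.04 CPM in clone 35 against 2.63 to 4.01 (log2 3.14 ± 0.20, edgeR adjusted p = 6.44e-12). TGFA, a ligand of the EGF receptor, had 1.77, 2.02, 1.12 and 1.09 CPM in clone 35, 96.5, 106, 84.9 and 80.9 in clone 38 and 55.2, 42.3, 36.1 and 42.3 in clone 75 (log2 -5.40 ± 0.19, adjusted p = 2.11e-20). Clone 72 had 1.28 ± 0.218 CPM of TGFA, and its difference from clone 35 did not pass the test (log2 0.23 ± 0.26, adjusted p = 0.466), whereas clones 98 and 99 had 42.6 ± 7.98 and 37.9 ± 2.74. Of 17 feedback targets of ERK, 2 rose and 0 fell. DUSP6, the phosphatase of ERK, rose from 30.1–57.3 to 97.7–106 CPM (log2 1.31 ± 0.12), and SPRY1, an inhibitor of receptor signalling, from 6.75–10.99 to 15.6–22.8 (log2 1.16 ± 0.16).

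Of 41 WNT pathway genes, 9 rose and 6 fell (median log2 0.00). The ligand WNT9A had 26.3, 26.1, 13.9 and 11.8 CPM in clone 35 against 2.20 to 5.01 (log2 2.59 ± 0.21, edgeR adjusted p = 4.61e-09). RNF43, a ubiquitin ligase that removes WNT receptors, had 2.33 to 3.07 CPM against 0 to 0.0490. The receptors ROR2 and ROR1 moved in opposite directions, ROR2 from 0–0.0714 to 0.719–0.940 CPM and ROR1 from 23.5–39.5 to 6.07–7.95 (log2 -2.12 ± 0.14). DKK3 fell from 23.6–41.8 to 7.85–8.95 CPM. Of 22 YAP and TAZ targets, 2 rose and 1 fell. Of the 2 that rose, 1 was IGFBP3, which was near the floor and whose call was not stable, as given above. CCN2, a classical target, rose from 60.1–131 to 274–367 (log2 1.96 ± 0.28), and AMOTL1, which holds YAP in the cytoplasm, fell from 14.6–24.2 to 0.793–1.07 (log2 -4.16 ± 0.20).

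Axon guidance genes changed often in both directions, with 11 of 51 risen and 8 fallen (median log2 0.12). SEMA6A had 13.96 to 16.6 CPM in clone 35 against 1.00 to 1.47 (log2 3.56 ± 0.10, edgeR adjusted p = 6.07e-25), SEMA3D 4.75 to 6.44 against 0.315 to 1.14 and SLIT2, a repellent that binds ROBO receptors, 2.54 to 6.02 against 0.242 to 0.730. SEMA6B fell from 38.5–107 to 8.36–13.3 CPM (log2 -2.62 ± 0.28). The receptor ROBO2 had no count in clone 35, which allows up to 0.0186 CPM over its 4 libraries combined, against 0.774 to 1.64 CPM in clone 38 and 0.144 to 0.228 in clone 75.

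Interferon-stimulated genes fell more often than they rose, with 14 fallen and 5 risen of 51 (median log2 -0.39). OAS3, which activates RNase L on sensing double-stranded RNA, fell from 61.2–74.2 to 12.6–15.2 CPM (log2 -2.27 ± 0.07, edgeR adjusted p = 4.33e-26), SP100, a nuclear body protein, from 2.50–6.80 to 0.146–0.319, and IFIT2 from 0.716–2.16 to 0.0743–0.268. Against this, ISG15, a ubiquitin-like modifier, rose from 4.12–5.37 to 19.6–22.2 CPM (log2 2.13 ± 0.11, adjusted p = 6.84e-17), and IFITM2 and IFITM3 rose by log2 1.45 ± 0.11 and 1.34 ± 0.10. The 2 IFITM genes lie side by side and resemble each other, so their reads may be shared. Of 14 antigen presentation genes, 1 rose and 3 fell. The 1 that rose, HLA-DRB1, was near the floor, with a mean of 0.0310 CPM in clone 35 and 0 in the wild-type clones. Among those that fell was HLA-B, from 100.1–125 to 51.2–57.5 CPM (log2 -1.07 ± 0.05), a change of log2 -0.95 against clone 75 alone. Its reads may be shared with other HLA class I genes.

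Of 25 NF-kB cytokines and related genes, 6 fell and 1 rose (median log2 -0.41). ICAM1, the adhesion molecule for leukocytes, had 5.40, 5.36, 5.33 and 6.58 CPM in clone 35, 74.99, 65.7, 75.9 and 58.5 in clone 38 and 51.3, 56.4, 57.7 and 85.4 in clone 75 (log2 -3.53 ± 0.23, edgeR adjusted p = 1.08e-13). IL32 fell from 11.3–35.7 to 1.44–2.24 CPM and CSF1, the macrophage growth factor, from 3.38–16.4 to 0.545–0.813. The chemokine CCL2 had 0 to 0.0991 CPM in clone 35, 2.37 to 3.14 in clone 38 and 31.2 to 83.8 in clone 75, so that the wild-type clones were far apart. CXCL1, a chemokine for neutrophils, rose from 1.00–3.43 to 8.57–12.97 CPM (log2 2.90 ± 0.27).

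Genes of cholesterol synthesis were lower in clone 35. Of 29 tested, 8 fell and 0 rose, with a median log2 fold change of -0.80. Of the 29, 24 had a value below 0, and 7 of the falls stayed past log2 1 relative to their neighbours. Enzymes of this pathway are switched on by SREBP-2, the product of SREBF2, when sterols are low. HMGCS1, the synthase that feeds HMG-CoA reductase, had 50.9, 50.7, 45.4 and 43.9 CPM in clone 35. It had 189.6, 195, 132 and 113 in clone 38 and 109.7, 162, 126 and 189.7 in clone 75 (log2 -1.67 ± 0.17, edgeR adjusted p = 1.47e-08). INSIG1, which holds SREBP in the endoplasmic reticulum and is itself a target, fell from 61.2–145 to 22.99–28.4 (log2 -1.94 ± 0.26). DHCR7 and MSMO1, late enzymes, had log2 fold changes of -1.63 ± 0.15 and -1.47 ± 0.14, and SREBF2 itself one of -1.30 ± 0.13 (from a mean of 154 to 62.5 CPM).

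The SREBF2 promoter (chr22:41832855-41833154, + strand, RefSeq, GRCh38.p14) is shown because it alone of the 23 cholesterol promoters with an entry held TCACNCCAC, a sterol regulatory element, searched on both strands; capitals mark it.
SREBF2: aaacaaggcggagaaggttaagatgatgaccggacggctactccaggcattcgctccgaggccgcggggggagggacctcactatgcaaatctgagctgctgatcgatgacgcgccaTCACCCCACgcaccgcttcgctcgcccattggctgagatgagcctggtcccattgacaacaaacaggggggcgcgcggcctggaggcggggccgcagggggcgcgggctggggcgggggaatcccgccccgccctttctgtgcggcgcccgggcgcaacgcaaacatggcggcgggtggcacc
The word occurred in 1.15% of the 27305 promoters. Of the 8 cholesterol genes that fell all had an entry, and 7 of them did not hold it in this window, from which nothing follows about the factor. SREBF2 was named for this reason after its values were seen.

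Clone 72 had no such low levels, with 234 ± 1.87 CPM of HMGCS1 and 133 ± 2.86 of INSIG1, and clone 35 was lower than clone 72 in 16 of the 29 genes and higher in 0, against 8.78% of all genes lower and 12.2% higher. Clones 98 and 99 had 51.97 ± 5.92 and 56.7 ± 1.84 CPM of HMGCS1, and their difference from clone 35 did not pass the test (log2 -0.19 ± 0.17, edgeR adjusted p = 0.938).

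Of 26 NRF2 targets and detoxification genes, 8 fell and 1 rose. ME1, malic enzyme, fell from 5.34–8.93 to 0.0991–0.171 CPM (log2 -5.76 ± 0.19, edgeR adjusted p = 1.67e-25), OSGIN1 from 31.9–99.3 to 6.40–8.56 and the export pump ABCC3 from 1.67–2.83 to 0.203–0.446. MGST1, a glutathione transferase, met the rule, which sets the fold on the mean of both differences, but clone 75 alone had next to none of it (0 to 0.0446 CPM). Clone 38 had 6.30 to 7.50 CPM against 8.88 to 9.52 in clone 35, a log2 fold change of 0.43. Of 31 genes of the integrated stress and unfolded protein responses, 3 fell and 1 rose, against 6.98% and 6.26% of all genes tested. ATF3 fell from 10.8–26.9 to 4.44–5.74 CPM and the cystine transporter SLC7A11 from 20.6–71.5 to 11.8–13.5, while the related factor ATF5 rose from 34.5–46.6 to 95.9–105 (log2 1.33 ± 0.05).

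Of 49 GATA, SOX, HOX and T-box factors, 6 rose and 3 fell (median log2 -0.10). Beside GATA3, SOX4, a factor of progenitor and tumour cells, rose from 2.35–4.57 to 15.1–21.6 CPM (log2 2.42 ± 0.15, edgeR adjusted p = 1.36e-11), and the posterior homeobox gene HOXB13 from 0–0.145 to 2.75–3.20. GATA6, a factor of endoderm and lung, fell from 29.4–50.9 to 10.9–13.1 CPM (log2 -1.64 ± 0.11), and HOXB9 from 30.3–56.4 to 9.35–13.8 (log2 -1.79 ± 0.10). GATA3 and GATA6 thus moved in opposite directions in clone 35. Of 20 genes of p53 and the CDK inhibitors 1 rose and 0 fell. It was a cyclin in that list and not a CDK inhibitor: CCND2, cyclin D2, which rose from 0–0.0968 to 2.27–3.12 CPM. Of 33 genes of glycolysis and hypoxia 2 rose and 0 fell, among them NDRG1, a gene induced by hypoxia, from 0.0481–1.04 to 8.08–10.4 CPM.

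Lists of proliferation and housekeeping held few calls. Over all 19703 genes tested, 4598 were higher and 4670 lower at an unadjusted p under 0.05. Of 40 genes of S phase, edgeR called 0, with 7 higher and 14 lower at an unadjusted p under 0.05 and a median of -0.07. Of 38 genes of G2 and mitosis it called 1, the phosphatase CDC25B, which fell from 185–229 to 81.7–92.3 CPM (log2 -1.23 ± 0.09). At an unadjusted p under 0.05, 4 of them were higher and 17 lower, with a median of -0.21 and 26 of 38 below 0. Of 52 ribosomal protein genes, edgeR called 0 (23 higher and 12 lower at an unadjusted p under 0.05), and of 14 mitochondrially encoded genes 0 (5 higher and 0 lower). Of 9 cancer-testis genes tested edgeR called 0 (3 higher and 0 lower at an unadjusted p under 0.05). DESeq2 likewise called 0 in each of the lists where edgeR called 0.

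**Figure D5:**
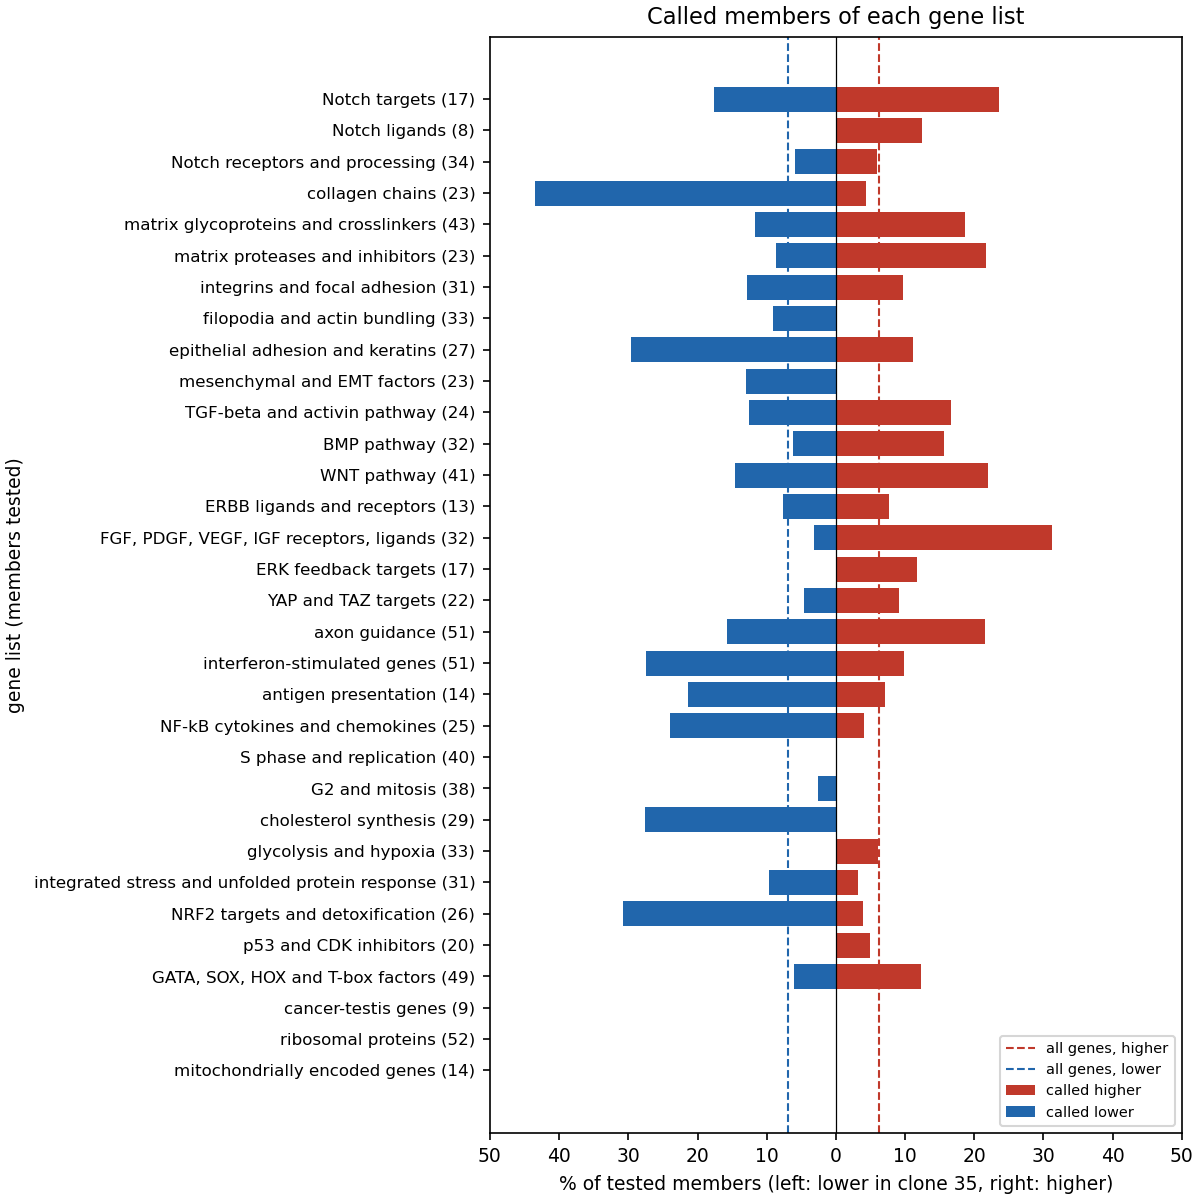
Share of the tested members of each gene list that was called higher (right, red) or lower (left, blue) in clone 35 against both wild-type clones, with the number tested in brackets; dashed lines give the shares over all genes, 6.26% and 6.98%. Collagen chains reach furthest to the left, and the list of kinase receptors, ligands and their binding proteins furthest to the right.

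Markers of other cell types were checked in the 12 libraries. The summed level of 15 lung epithelial markers was 2.64 to 3.90 CPM in clone 35 and 3.11 to 4.99 in the wild-type clones, and SFTPC, the defining gene of alveolar type II cells, was at 0 in all 12 libraries. SFTPA1, SCGB1A1, SCGB3A2, KRT5 and HOPX were at 0 in clone 35. Of the 5 tested, FOXA2 rose (from 0–0.0722 to 0.661–1.74 CPM) and FOXA1 fell (log2 -1.10 ± 0.13). The sum over 10 fibroblast markers was 0.561 to 0.982 CPM in clone 35 and 0.593 to 0.881 in the wild-type clones, with LUM and DPT at 0 in clone 35. That over 10 endothelial markers was 8.04 to 9.22 CPM in clone 35 and 2.23 to 9.75 in the wild-type clones, with CDH5 and EMCN at 0 in clone 35. Of the 9 fibroblast and endothelial markers tested, edgeR and DESeq2 called 0 (0 higher and 1 lower at an unadjusted p under 0.05). The sum over 12 leukocyte markers was 108 to 131 CPM in clone 35 and 54.2 to 104 in the wild-type clones, with CD68, which many cultured cells express, the highest. CD3E, CD2, MS4A1 and TYROBP were at 0 in clone 35, and the pan-leukocyte gene PTPRC had at most 1 count in any of the 12 libraries. The sum over 12 neuronal and neuroendocrine markers was 366 to 425 CPM in clone 35 and 476 to 662 in the wild-type clones, with CHGA, INSM1 and ELAVL4 at 0 in clone 35, and 1 of the 9 tested rose and 2 fell. UCHL1, a ubiquitin hydrolase of neurons, fell from 293–418 to 16.1–16.8 CPM (log2 -4.40 ± 0.10). The part of other cells in the results was not tested.

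Changes were not spread evenly along the chromosomes. The median log2 fold change was 0.50 over 891 genes of chromosome 5, of which 133 rose and 33 fell. It was -0.43 over 1001 genes of chromosome 6, of which 30 rose and 125 fell. Over runs of 50 consecutive tested genes the median ran from -0.98 to 0.82, with 21 of 375 runs above 0.5 and 17 below -0.5. The lowest run lay at chr19:36445119-38321887 (GRCh38), where 47 of 50 genes were below 0 and 24 fell. The next lowest lay at chr20:270863-3045747, on the same arm of chromosome 20 as JAG1, where 21 of 50 genes fell (median -0.94). The highest lay at chr19:45178784-47113776, where 12 of 50 rose. Against the MYO10 knockout clones the medians of these runs were smaller in size, at -0.15, -0.17 and 0.18 in that order. Against the other JAG1 knockout clone they were -1.14, -0.77 and 0.73. The run at chr5:115602155-128538245 had a median of 0.79 against the wild-type clones and kept 0.53 against the MYO10 knockout clones. The cause of these differences between lines was not tested. Runs of the same genes ran from -0.64 to 0.57 between clones 38 and 75. When the fold threshold was put on the change relative to the 25 neighbours on each side, 2161 genes were called, against 2610.

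The wild-type clones did not always stand on the same side of clone 35. In 22 genes clone 35 differed from both by at least log2 1 in opposite directions, 9 of them at 5 CPM or more in a line. DSP, desmoplakin, had 5.13, 5.65, 7.19 and 5.03 CPM in clone 35, 15.3, 14.9, 12.7 and 11.6 in clone 38 and 2.59, 1.52, 2.21 and 1.48 in clone 75. TNIK, a kinase of the WNT pathway, had 10.2 to 15.8 CPM in clone 35 between 22.4 to 39.7 in clone 38 and 1.37 to 2.88 in clone 75. WWC3, a scaffold of the Hippo pathway, had 5.63 to 6.76 against 2.13 to 2.86 and 16.98 to 21.3, and RBPMS2, an RNA-binding protein, 4.56 to 4.95 against 1.57 to 2.59 and 10.3 to 12.7. In each of these 4 genes clone 35 lay between the wild-type clones with no overlap, and none counted as changed.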

How the data were processed

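RNA from cultures of H1299 clones was sequenced as 40 libraries, 4 for each of 10 lines. The deposited table holds whole-number counts per gene symbol, per the file headers. Per the submitters' processing notes the tools included fastp 0.23.4, STAR 2.7.11b, HTSeq 2.0.5, FastQC 0.12.0 and MultiQC 1.24.1, with genome build hg38; whether counting used strand is not given in the sources used here, so overlapping and antisense genes cannot be separated. Samples were grouped by the clone in their titles.

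Of 59251 symbols, 19703 passed edgeR's filter on low counts (minimum count 10) and held 99.96% of the counts; 17548 symbols were at 0 throughout. Counts were scaled by TMM and fitted with edgeR 4.0.16 in R 4.3.3 (robust quasi-likelihood, a coefficient per line over all 40 libraries, 30 residual degrees of freedom). A gene's p was the larger of those against clones 38 and 75, or 1 where their directions differed, with Benjamini-Hochberg adjustment over all genes tested. Calls needed an adjusted p under 0.05 and a mean absolute log2 fold change of at least 1. Differences from clone 72, from clones 98 and 99 (the larger p), and between clones 38 and 75 were tested in the same fit. Fold changes carry the SE of the averaged contrast. Ratios of scaled counts have exact 95% intervals for counting error, and a count of 0 was bounded at 3 counts. The procedure was tested on simulated data with spread between cultures only, which cannot show the error that differences between clones bring.

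Genes were named as markers, as the 12 largest rises and falls by the smaller of both differences among called genes reaching 5 CPM (leaving out clone-based, non-coding, antisense and pseudogene names), as the 4 genes at 5 CPM or more with the largest opposite differences, as up to 4 called members each way of a list, or as Notch ligands, receptors and targets; SREBF2, VIM, CDH1, COL1A1, SFTPC, PTPRC, LDHA, ZYX, FGFR3, FGF5, FGF18, PDGFC, IGFBP6 and NRP1 were named outside that rule after their values were seen. Members and lists were chosen with earlier results of these data known. Promoters and positions are RefSeq, GRCh38.p14. Alternatives were other scalings and filters, DESeq2 1.42.0, a replicate block, other sets of libraries, the clone as the unit, other fold thresholds and each culture left out.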

Additional observations from a re-analysis of the deposited data

Results flagged for a closer look

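In 331 sets of 4 cultures (the genes named here in clones 35, 38 and 75, where the mean was at least 1 CPM), 22 had 1 culture whose gap to the nearest other passed Dixon's 95% limit for 4 values. Chance flags about 1 in 20 such sets. In clone 35, high values stood at WWC3 6.76 CPM in culture 4 (5.63 to 5.75 in the other 3), KRT8 660.2 CPM in culture 4 (543 to 563 in the other 3) and NOG 45.3 CPM in culture 4 (31.4 to 33.2 in the other 3). In clone 35, high values stood at IFITM3 124 CPM in culture 4 (110.2 to 111 in the other 3) and ICAM1 6.58 CPM in culture 4 (5.33 to 5.40 in the other 3). In clone 35, low values stood at TNS3 16.6 CPM in culture 2 (17.8 to 17.99 in the other 3), DSG2 5.58 CPM in culture 2 (6.57 to 6.67 in the other 3) and INSIG1 22.99 CPM in culture 4 (27.7 to 28.4 in the other 3). In clone 38, high values stood at JAG1 58.5 CPM in culture 3 (37.6 to 41.1 in the other 3), HEY2 4.10 CPM in culture 3 (2.90 to 3.01 in the other 3) and COL18A1 7.68 CPM in culture 3 (5.73 to 5.88 in the other 3). In clone 38, high values stood at PLAU 116 CPM in culture 3 (88.96 to 92.98 in the other 3), ITGA2 44.4 CPM in culture 3 (26.6 to 27.2 in the other 3) and PMEPA1 141 CPM in culture 3 (77.8 to 81.9 in the other 3). In clone 38, high values stood at CCN2 76.7 CPM in culture 1 (60.1 to 62.4 in the other 3). In clone 38, low values stood at DTX3L 12.01 CPM in culture 2 (13.98 to 14.3 in the other 3), SMAD3 206 CPM in culture 4 (232 to 234 in the other 3) and CXCL1 1.00 CPM in culture 2 (1.36 to 1.38 in the other 3). In clone 75, high values stood at NID2 27.6 CPM in culture 3 (14.7 to 16.02 in the other 3), TIMP2 154 CPM in culture 1 (107 to 115 in the other 3) and PDGFB 14.8 CPM in culture 4 (6.50 to 7.18 in the other 3). In clone 75, low values stood at ADAM17 80.3 CPM in culture 2 (85.3 to 85.7 in the other 3). Of the flags in clone 35, 6 were in culture 4, and of those in clone 38, 6 were in culture 3. Without culture 3 of clone 38 the JAG1 difference was log2 -0.29 (edgeR adjusted p = 0.248), still not called.

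The other JAG1 knockout clone, 72, differed from clone 35 in genes named here, by edgeR's test of clone 35 against clone 72 (adjusted p under 0.05 for each). Clone 35 was higher by log2 2.32 for JAG1, 0.76 for GDF6, 1.08 for HES1, 1.54 for NRARP, 2.68 for GATA3, 5.24 for TGM2 and 7.25 for KRT8. For HES1 some cultures of clone 35 were near the level of clone 72. The log2 difference was -1.06 for MYO10, -1.73 for PLS1, -2.31 for INSIG1 and -2.29 for HMGCS1, with clone 35 the lower.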

How the results depend on the processing

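The 206 genes and marker values followed were refitted under 23 alternative settings, and 4510 of 4719 refitted values kept their direction and their side of the threshold; 186 lost their call, 138 of them with the clone as the unit, and 18 gained one. The number of genes called against both wild-type clones stayed within 1.5 times of 2610 under relative log expression size factors, library totals alone, no low-count filter, DESeq2, the 12-library fit and each left-out culture. With the clone as the unit it was 46 (29 higher, 17 lower), and GDF6 kept log2 4.86 but missed the threshold (adjusted p = 0.0506), in a fit with 2 residual degrees of freedom. With no fold threshold 8322 genes were called (4143 higher, 4179 lower), and at a log2 fold change of at least 2, 1065 (537 higher, 528 lower). A filter of 1 CPM in 4 libraries, which leaves fewer genes to test, gave 2229 genes against clone 38, 2047 against clone 75, 2740 against clone 72 and 566 between clones 38 and 75. Against clone 38 alone DSP stood at log2 -1.24, TNIK at -1.24, WWC3 at 1.22 and RBPMS2 at 1.21, and against clone 75 alone DNER stood at 1.07, each reversed from the mean of both differences. Of 1702 counts of called genes over the lists, 1551 stayed within 1.5 times of the main count. The threshold relative to chromosomal neighbours was chosen after seeing the data.

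Replicate numbers were not taken to pair the cultures: deviations from the clone means correlated at -0.0547 to 0.0206 between same-numbered cultures of clone 35 and the wild-type clones, and at 0.0901 to 0.199 between those of clones 38 and 75, while 0 cultures of clone 35 correlated best with their own number. A fit with the replicate block called 2629 genes (1243 higher, 1386 lower). In clone 35, cultures 1 and 2 stood apart from cultures 3 and 4 for some genes, among them HES1, NOTCH3, MMP1, WNT9A, TGFA and NRG1. The main fit treats the cultures of a clone as independent, and the source of this split was not tested. The 12 libraries are deep and close in size, and levels under about 0.1 CPM rest on a few counts each.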
